A study of Rattus norvegicus with 6 samples.

Results

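The genes described here make cholesterol and fatty acids. They were taken by symbol from a list of 36 genes, 22 of the sterol branch and 14 of the fatty acid branch, and 35 of them had a row among the 32623 genes of the count table. The expression of Mlxipl is not analysed here. Elovl6 was listed at 0 to 0.12 FPKM (counted fragments scaled to exon length and to the library total) and did not pass the filter on low counts, which left 34 members for the test, all 22 sterol members and 12 fatty acid members. RNA of rat liver was sequenced in 3 libraries labelled HCC, the untreated control of a hepatocellular carcinoma study, and in 3 libraries labelled TAE, whose animals underwent transarterial embolization, a procedure that blocks the arteries feeding a liver tumour. Strain, age, sex, the tumour model, the time from embolization to sampling and the share of tumour in the tissue are not stated in the labels, nor is it said whether each library came from its own animal, and the spread that p-values rest on may in part be technical.

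Cholesterol is built from acetyl-CoA through mevalonate, farnesyl diphosphate, squalene and lanosterol, and fatty acids are built from the same precursor through malonyl-CoA, then elongated and desaturated. The liver is a main site of both. SREBP-2, encoded by Srebf2, drives sterol genes when membrane cholesterol is low, SREBP-1c, from Srebf1, drives fatty acid genes under insulin, and the proteins Scap and Insig decide whether either factor leaves the endoplasmic reticulum to be cut and activated.

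Total counts were 13448286 to 16604067 per library. All 16 hepatocyte markers on the list had a row, and Alb, the gene of albumin, stood at 5318 to 15868 FPKM over the 6 libraries. The TAE libraries differed among themselves. Summed over the 16 hepatocyte markers, expression was 25012 to 30797 FPKM in HCC and 14835, 11029.7 and 32673 FPKM in TAE replicates 1, 2 and 3, and summed over 10 macrophage markers it was 1312 to 1539.6 FPKM in HCC and 3965 to 5560.1 FPKM in TAE. Summed over 6 fibroblast markers it was 430.4 to 689 FPKM in HCC and 1109 to 2957 FPKM in TAE, and over 5 cholangiocyte markers 17.0 to 58.4 FPKM in HCC and 109 to 249 FPKM in TAE. Most of the cholangiocyte sum in TAE was Spp1, at 208.81, 87.95 and 176.32 FPKM in replicates 1, 2 and 3, beside 3.21 to 40.73 FPKM in HCC. Of the 5 markers, 4 had log2 changes above 0 and Krt7 had -0.22. Most of the macrophage sum in TAE was Lyz2, at 3534, 2790 and 3353 FPKM in replicates 1, 2 and 3. Of the 10 macrophage markers, 7 had log2 changes above 0 and 3, Marco, Clec4f and Cd163, below 0. Summed over 5 cell cycle markers, expression was 453 to 478 FPKM in HCC and 377, 522 and 185 FPKM in TAE replicates 1, 2 and 3. In bulk tissue, fewer cells of a type and less RNA per cell cannot be told apart, and the part of cell makeup in the results below was not tested.

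Fitted levels were lower in TAE for most members, and 1 passed the test over all genes. Fads1, the delta-5 desaturase, fell from a mean of 141 ± 4.59 in the HCC libraries to 82.4 ± 2.69 FPKM in TAE (SD, n = 3), and no member passed as higher. In edgeR's quasi-likelihood test with an adjusted p threshold of 0.05 over 14499 genes, 1 of 34 members was called lower, where 0.310% of all genes were, and 0 were called higher, where 2.70% of all genes were. At an unadjusted p under 0.05, 16 members were lower (6.82% of all genes) and 0 higher (15.9% of all genes). DESeq2 called 9 members lower, namely Fads1, Fads2, Dhcr7, Fdps, Msmo1, Idi1, Elovl5, Cyp51 and Acaca, where it called 1.99% of all genes lower, and called 0 higher. The fitted log2 change was below 0 for 31 of 34 members, against 53.1% of all tested genes. The median log2 change was -0.40 over the 22 sterol members and -0.37 over the 12 fatty acid members, beside -0.03 over all tested genes. The sterol median was -0.62 without TAE replicate 3, and the fatty acid median was -0.23 without HCC replicate 1. In the deposited FPKM, every TAE library lay below every HCC library for 14 members, 9 sterol and 5 fatty acid, and this held for 5.57% of all tested genes. No member had every TAE library above every HCC library, which 22.1% of all genes did. With the TMM scaling used in the fit, the lower count was 17 members, where it was 13.4% of all genes. Under both scalings 12 members were separated in this direction, as were 4.53% of all tested genes.

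**Figure D1:**
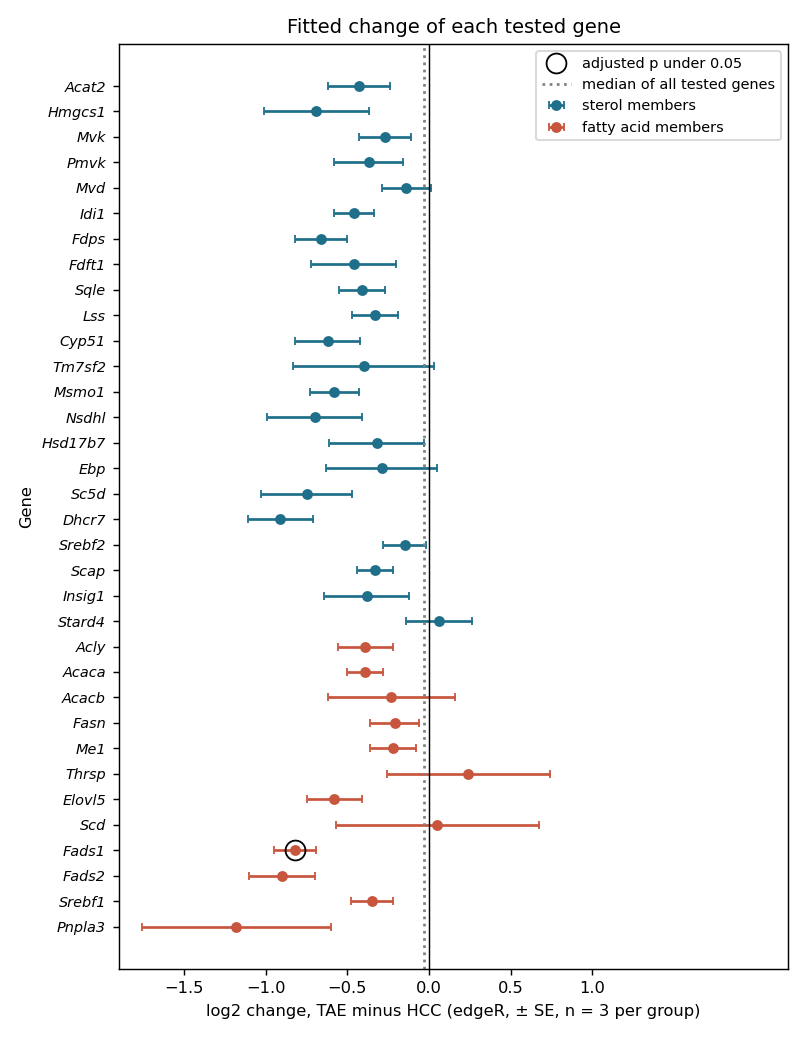
Fitted log2 change, TAE minus HCC (x axis), with its SE, for each of the 34 tested genes (y axis), sterol members in blue and fatty acid members in red. Points of 31 genes lie left of 0, and the ring marks Fads1, the 1 gene with an adjusted p under 0.05.

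The count of calls turned on single libraries. Without TAE replicate 2, edgeR called 10 members lower, where it called 9.56% of all genes lower, and without TAE replicate 3 it called 13, where it called 3.51% of all genes lower. Without TAE replicate 1, or without any 1 of the 3 HCC libraries, it called 0 members and at most 1 gene of all those tested. Of the 13 members called without TAE replicate 3, 11 were sterol members, among them Hmgcs1, Fdft1, Nsdhl, Sc5d and Ebp. In that fit the log2 change was -1.14 for Hmgcs1 and Sc5d, -1.10 for Nsdhl, -0.81 for Fdft1 and -0.62 for Pmvk. Of the 10 called without TAE replicate 2, 7 were sterol members, among them Cyp51, Sqle and Acat2. Fads1, Fads2, Dhcr7, Fdps, Msmo1 and Idi1 were called lower in both of these fits.

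Fads1 and its neighbour Fads2, the delta-6 desaturase, together make long polyunsaturated fatty acids such as arachidonic acid from dietary precursors. Both genes lie on chromosome 1, Fads2 at 226114413 to 226152524 on the minus strand and Fads1 at 226234074 to 226249138 on the plus strand, in the coordinates of the deposited table. Fads1 stood at 137, 139 and 146 FPKM in HCC replicates 1, 2 and 3 and at 82.7, 85.0 and 79.6 FPKM in TAE replicates 1, 2 and 3. The TAE values were close to each other, and all lay under the lowest HCC value. The log2 change was -0.82 ± 0.13 (SE, n = 3 per group), a TAE level 0.565 times that of HCC (edgeR adjusted p = 0.0388). The call was lost without any 1 HCC library or TAE replicate 1 (edgeR adjusted p = 0.142 to 0.223), while the log2 change stayed between -0.77 and -0.87 over the 6 fits that each left out a library. Fads2 stood at 182, 167 and 171 FPKM in HCC and at 121, 76.6 and 89.9 FPKM in TAE. The groups did not overlap, and the TAE libraries spread more widely than for Fads1. Its log2 change was -0.90 ± 0.20 (edgeR adjusted p = 0.0593). The third desaturase gene of the cluster, Fads3, lies beside Fads2 and stood at 4.78 ± 0.430 FPKM in HCC and 5.97 ± 1.19 FPKM in TAE (SD, n = 3; log2 change 0.27, edgeR adjusted p = 0.477). On the other side of Fads1, Fen1, a DNA repair and replication nuclease, had a log2 change of -0.41 (edgeR adjusted p = 0.353), with its lowest value, 11.4 FPKM, in TAE replicate 3. The Fen1 log2 change was -0.72 without TAE replicate 2 (edgeR adjusted p = 0.0352) and -0.15 without TAE replicate 3. Beyond Fads3, Rab3il1, an exchange factor for Rab GTPases, rose from 13.3 ± 3.12 to 30.1 ± 3.74 FPKM (SD, n = 3; log2 change 1.13, edgeR adjusted p = 0.0494), and lost the call without TAE replicate 1 or any 1 HCC library (edgeR adjusted p = 0.142 to 0.227).

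**Figure D2:**
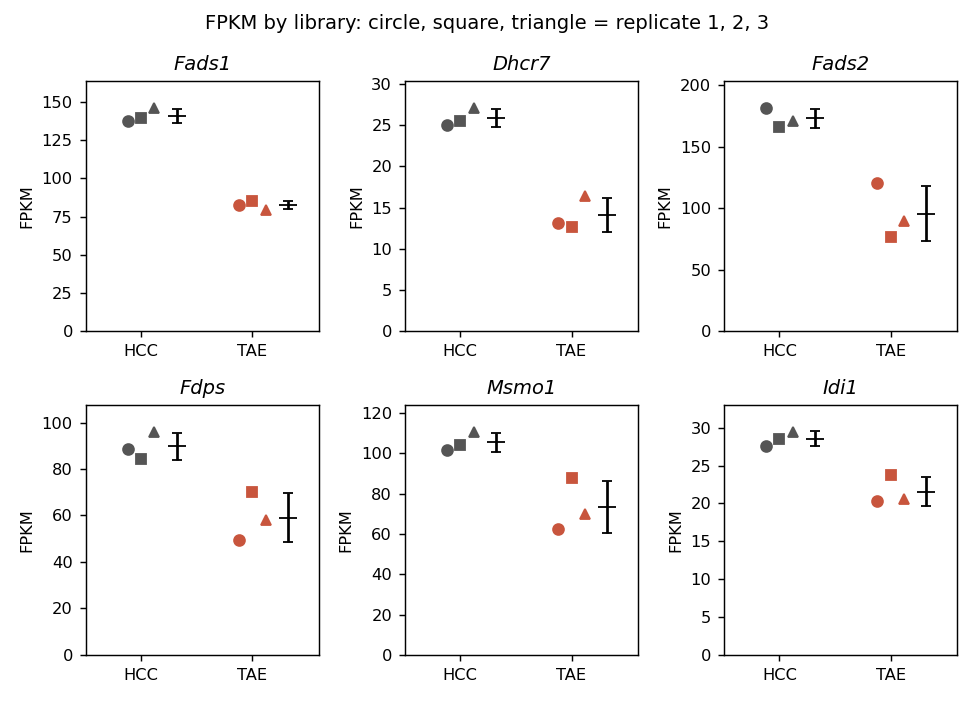
FPKM (y axis, from 0) in each HCC and TAE library for the 6 tested members with the smallest p. Symbols are libraries and the bar beside each group is the mean ± SD (n = 3). In all 6 panels every TAE point lies below every HCC point.

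The 7 genes of the mevalonate steps all had negative log2 changes, from -0.14 (Mvd) to -0.69 (Hmgcs1), with a median of -0.43. None passed over all genes in edgeR, Idi1 and Fdps were under 0.05 before adjustment, and DESeq2 called both lower. The shares of all genes were 6.82% lower before adjustment and 1.99% lower in DESeq2. Fdps, which makes farnesyl diphosphate for sterols, ubiquinone and protein prenylation, stood at 88.6, 84.4 and 96.1 FPKM in HCC and 49.3, 70.1 and 57.9 FPKM in TAE. The groups did not overlap, and the log2 change was -0.66 ± 0.16 (edgeR adjusted p = 0.0721). Idi1, the isomerase that supplies dimethylallyl diphosphate, stood at 27.6, 28.6 and 29.5 FPKM in HCC and 20.3, 23.8 and 20.6 FPKM in TAE (log2 change -0.46 ± 0.12, edgeR adjusted p = 0.0825). Its HCC libraries lay close together, all above TAE.

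Hmgcs1, the cytosolic synthase that makes HMG-CoA, was the most abundant gene of these steps. It stood at 137, 152 and 161 FPKM in HCC and 73.5, 73.8 and 132 FPKM in TAE, and its log2 change was -0.69 ± 0.32 (edgeR adjusted p = 0.246). TAE replicates 1 and 2 were far below the HCC level, and replicate 3 was just below the lowest HCC library. Pmvk, the phosphomevalonate kinase, had the same order, with 30.3, 28.9 and 28.1 FPKM in HCC and 19.2, 22.04 and 27.6 FPKM in TAE. For both genes the groups overlapped once TMM scaling was applied. Acat2, the cytosolic thiolase, stood at 10.3, 9.29 and 8.59 FPKM in HCC and 7.10, 9.69 and 5.34 FPKM in TAE, with replicate 2 inside the HCC range and replicate 3 the lowest. Acat2l1, a second gene of similar name in the table, had 7.61, 7.69 and 6.86 FPKM in HCC and 6.30, 8.32 and 4.48 FPKM in TAE, and the counting could have split reads between the 2 genes. Mvk, mevalonate kinase, stood at 13.1 ± 1.33 FPKM in HCC and 11.3 ± 1.82 FPKM in TAE, and Mvd, the decarboxylase of the branch, at 10.75 ± 0.554 and 10.1 ± 1.40 FPKM (SD, n = 3 for each group). Both sets of groups overlapped in FPKM, and neither gene passed.

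All 11 genes of the squalene and sterol steps had negative log2 changes, from -0.29 (Ebp) to -0.91 (Dhcr7), with a median of -0.46. None passed over all genes in edgeR, 7 were under 0.05 before adjustment, and DESeq2 called 3 lower, Dhcr7, Msmo1 and Cyp51. Over all genes, 6.82% were lower before adjustment and 1.99% were called lower in DESeq2. Dhcr7, the reductase of the last step to cholesterol, came nearest. It stood at 25.0, 25.5 and 27.1 FPKM in HCC and 13.1, 12.7 and 16.4 FPKM in TAE, a TAE level 0.532 times that of HCC (log2 change -0.91 ± 0.20, edgeR adjusted p = 0.0547). The groups lay far apart beside the spread within each. The call depended on the setting, with an adjusted p of 0.0320 in edgeR without the filter on low counts and 0.00222 in DESeq2. Msmo1, the sterol C4-methyl oxidase, stood at 102, 104 and 111 FPKM in HCC and 62.4, 87.7 and 69.9 FPKM in TAE, again without overlap (log2 change -0.58 ± 0.15, edgeR adjusted p = 0.0798).

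The other genes of these steps were ordered differently among the TAE libraries. Sc5d, which introduces the C5 double bond, stood at 36.1, 35.7 and 36.9 FPKM in HCC and 18.3, 17.4 and 29.4 FPKM in TAE. Nsdhl, which removes the C4 carboxyl group, stood at 76.1, 74.7 and 70.3 FPKM in HCC and 39.8, 34.6 and 62.8 FPKM in TAE. In both genes TAE replicates 1 and 2 were the lowest and replicate 3 lay between them and HCC, so that the groups did not overlap but the log2 changes of -0.75 ± 0.28 and -0.70 ± 0.29 missed the threshold (edgeR adjusted p = 0.177 and 0.217). Fdft1, the squalene synthase that commits carbon to sterols, stood at 36.6, 38.9 and 40.6 FPKM in HCC and 24.5, 23.6 and 37.4 FPKM in TAE. Ebp, the sterol isomerase, stood at 57.8, 73.4 and 70.5 FPKM in HCC and 43.8, 41.2 and 80.3 FPKM in TAE, with replicate 3 above all HCC libraries. Tm7sf2, a C14 reductase, and Hsd17b7, the 3-keto reductase, also had their highest TAE value in replicate 3, at 21.9 and 5.24 FPKM beside 10.2 and 2.79 FPKM in replicate 1.

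Cyp51, the lanosterol 14-demethylase, was the most abundant gene of the sterol branch and had another order. It stood at 164, 146 and 166 FPKM in HCC and 90.5, 153 and 84.1 FPKM in TAE (log2 change -0.62 ± 0.20, edgeR adjusted p = 0.129). TAE replicate 2 was inside the HCC range, and replicates 1 and 3 were far under it. Sqle, the squalene epoxidase, a rate-limiting step after mevalonate, stood at 34.6, 32.8 and 33.9 FPKM in HCC and 23.7, 34.3 and 22.2 FPKM in TAE, the same order as Cyp51 (log2 change -0.41 ± 0.14, edgeR adjusted p = 0.150). Lss, which closes squalene epoxide to lanosterol, stood at 9.34 ± 1.34 FPKM in HCC and 7.72 ± 1.08 FPKM in TAE (SD, n = 3). For Cyp51, Sqle, Lss, Acat2 and Mvk the groups overlapped in FPKM, and with TMM scaling every TAE library lay below every HCC library.

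Start regions are shown for the 6 members with the smallest p, the members on which the account above turns. Each run is the 250 bases before the RefSeq start on the gene's own strand in GRCr8. They lie at chr1:216252442-216252691 (Fads1, plus), chr1:216172034-216172283 (Fads2, minus), chr1:208444184-208444433 (Dhcr7, plus), chr2:176804817-176805066 (Fdps, minus), chr16:29746863-29747112 (Msmo1, plus) and chr17:66547525-66547774 (Idi1, minus). Capitals mark the NF-Y box CCAAT and the GC box GGGCGG on either strand.
Fads1: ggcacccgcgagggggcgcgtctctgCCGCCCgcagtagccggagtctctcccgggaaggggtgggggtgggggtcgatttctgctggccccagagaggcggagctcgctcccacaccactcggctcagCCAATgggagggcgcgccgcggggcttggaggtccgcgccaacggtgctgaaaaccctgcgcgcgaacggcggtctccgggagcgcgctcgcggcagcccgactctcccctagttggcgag
Fads2: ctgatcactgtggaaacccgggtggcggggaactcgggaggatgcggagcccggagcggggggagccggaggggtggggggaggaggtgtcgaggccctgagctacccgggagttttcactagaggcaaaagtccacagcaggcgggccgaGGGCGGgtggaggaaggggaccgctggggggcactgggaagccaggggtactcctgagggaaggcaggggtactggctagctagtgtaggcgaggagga
Dhcr7: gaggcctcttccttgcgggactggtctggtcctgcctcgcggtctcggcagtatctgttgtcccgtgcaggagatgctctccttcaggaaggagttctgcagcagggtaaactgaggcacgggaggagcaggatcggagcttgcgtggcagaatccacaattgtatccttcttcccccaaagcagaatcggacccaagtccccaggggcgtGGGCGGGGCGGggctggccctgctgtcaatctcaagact
Fdps: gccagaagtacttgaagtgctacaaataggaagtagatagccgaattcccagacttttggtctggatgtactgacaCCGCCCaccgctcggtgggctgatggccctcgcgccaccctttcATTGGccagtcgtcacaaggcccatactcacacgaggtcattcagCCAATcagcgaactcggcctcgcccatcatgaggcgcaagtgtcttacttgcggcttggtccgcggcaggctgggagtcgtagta
Msmo1: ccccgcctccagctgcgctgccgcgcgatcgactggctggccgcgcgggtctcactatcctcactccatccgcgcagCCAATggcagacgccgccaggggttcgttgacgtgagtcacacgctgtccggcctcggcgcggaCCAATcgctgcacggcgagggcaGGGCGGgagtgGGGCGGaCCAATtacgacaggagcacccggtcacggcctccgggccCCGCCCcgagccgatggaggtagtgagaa
Idi1: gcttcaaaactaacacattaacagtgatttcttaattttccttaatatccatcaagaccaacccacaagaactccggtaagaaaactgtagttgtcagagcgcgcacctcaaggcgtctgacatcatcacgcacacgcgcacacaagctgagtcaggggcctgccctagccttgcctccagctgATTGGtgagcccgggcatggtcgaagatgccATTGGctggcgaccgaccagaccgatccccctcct

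NF-Y is a partner of SREBP at many sterol promoters, and GC boxes bind Sp1. Of the 36 listed genes, 29 had a start region by symbol, 28 of them tested members and the other Mlxipl, which holds the NF-Y box 2 times. The NF-Y box was present in 22 of them (75.9%), against 34.3% of 27457 start regions of the same length, and 11 held it at least 2 times, against 9.77% of all. Among those printed, Msmo1 held it 3 times, Idi1 and Fdps 2 times each, Fads1 once, and Fads2 and Dhcr7 lacked it. The GC box was present in 23 (79.3%, against 32.4% of all), and among those printed Idi1 lacked it. The E-box CACGTG was present in 4 (13.8%, against 5.79% of all). The letters TCACNCCAC, a strict form of the sterol regulatory element, were present in 0 of the 29 and in 0.976% of all. With so low a share over all regions, 0 of 29 does not show that other forms of the element are absent. Both strands were searched, and a GC box can share bases with an NF-Y box or another GC box beside it. The table of starts covers many gene types, base composition was not matched, and a match is no evidence of binding.

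None of the 4 genes that sense and move sterols passed in edgeR or DESeq2, with a median log2 change of -0.24. Srebf2 stood at 19.7, 18.5 and 20.6 FPKM in HCC and 18.5, 22.8 and 14.5 FPKM in TAE (log2 change -0.15 ± 0.13, edgeR adjusted p = 0.495). In FPKM the TAE libraries lay on both sides of the HCC range. With TMM scaling TAE replicate 2 lay inside that range and replicates 1 and 3 below it. Scap, the escort of SREBP, stood at 18.7, 17.5 and 18.1 FPKM in HCC and 14.1, 17.0 and 13.9 FPKM in TAE, without overlap (log2 change -0.33 ± 0.11, edgeR adjusted p = 0.156). Insig1, which holds Scap in the endoplasmic reticulum and is itself an SREBP target, was the most abundant of these 4 genes, at 96.6, 60.0 and 68.7 FPKM in HCC and 58.1, 47.9 and 69.7 FPKM in TAE. HCC replicate 1 stood apart from the other HCC libraries, and the groups overlapped (log2 change -0.38 ± 0.26). Leaving out HCC replicate 1 gave -0.17, leaving out TAE replicate 2 gave -0.19 and leaving out TAE replicate 3 gave -0.62. Stard4, a carrier of cholesterol between membranes, had 12.0, 8.61 and 8.77 FPKM in HCC and 13.1, 11.3 and 7.74 FPKM in TAE, a log2 change of 0.06 ± 0.20. Of the 4, Scap was lower at an unadjusted p under 0.05, as were 6.82% of all genes.

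The median log2 change was -0.22 over the 6 genes of fatty acid synthesis and -0.70 over the 4 tested genes of elongation and desaturation, a difference that was not tested. Of the 6 genes of fatty acid synthesis 5 had negative log2 changes and none passed in edgeR. Acly and Acaca were lower at an unadjusted p under 0.05, as were 6.82% of all genes. DESeq2 called 1 lower, where it called 1.99% of all genes lower. This was Acaca, the acetyl-CoA carboxylase of the cytosol, which stood at 15.5, 13.0 and 13.5 FPKM in HCC and 11.3, 12.3 and 9.67 FPKM in TAE (log2 change -0.39 ± 0.11, edgeR adjusted p = 0.108). Its groups were separated by a narrow gap. Acly, which splits citrate to acetyl-CoA and so feeds both branches, stood at 103, 80.1 and 85.9 FPKM in HCC and 68.5, 92.4 and 54.3 FPKM in TAE (log2 change -0.39 ± 0.17, edgeR adjusted p = 0.217). As with Cyp51 and Sqle, TAE replicate 2 was inside the HCC range in FPKM. TAE replicate 3 was the lowest TAE library in FPKM for these 3 genes, as for 59.1% of all tested genes. With TMM scaling Cyp51 and Sqle were lowest in TAE replicate 1. Fasn, the fatty acid synthase, had 37.5 ± 3.85 FPKM in HCC and 33.6 ± 5.52 FPKM in TAE, and Me1, the malic enzyme that supplies NADPH, had 27.9 ± 2.26 and 25.25 ± 5.83 FPKM (SD, n = 3), with overlap in each.

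Thrsp, a lipogenic protein under thyroid hormone and carbohydrate control, was the most abundant gene of this step and the member with the highest log2 change. It stood at 133, 118 and 146 FPKM in HCC and 117, 74.4 and 267 FPKM in TAE. TAE replicate 3 was the highest of all libraries and replicate 2 the lowest, and the log2 change of 0.24 ± 0.50 was smaller than its own error (edgeR adjusted p = 0.784). Without TAE replicate 3 it was -0.58. Acacb, the carboxylase at mitochondria that restrains fatty acid oxidation, followed the same order in TAE, at 3.69, 2.40 and 6.06 FPKM, beside 5.68, 3.89 and 4.77 FPKM in HCC, and its log2 change of -0.23 ± 0.39 was 0.08 without TAE replicate 2.

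Scd, the stearoyl-CoA desaturase that makes oleate, was the most abundant member by mean FPKM and varied widely within HCC. It stood at 385, 70.7 and 107 FPKM in HCC and 298, 195 and 117 FPKM in TAE. HCC held both the highest and the lowest library. The log2 change was 0.05 ± 0.62 (edgeR adjusted p = 0.968), and ranged from -0.33 without HCC replicate 2 to 1.10 without HCC replicate 1. Pnpla3, a lipid droplet protein that responds to carbohydrate, shared the high value of HCC replicate 1, with 13.1, 2.52 and 3.65 FPKM in HCC and 3.18, 3.68 and 2.10 FPKM in TAE (log2 change -1.18 ± 0.58, edgeR adjusted p = 0.272). Without HCC replicate 1 its log2 change was -0.14 (edgeR adjusted p = 0.814). By smaller margins, HCC replicate 1 also held the highest HCC values of Acly, Acaca, Acacb, Fasn, Me1, Srebf1 and Fads2. Among sterol members it did so for Insig1, Stard4, Acat2, Mvk, Pmvk, Sqle, Lss, Nsdhl and Scap. The share of all genes with their highest HCC value in this library was not counted.

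**Figure D3:**
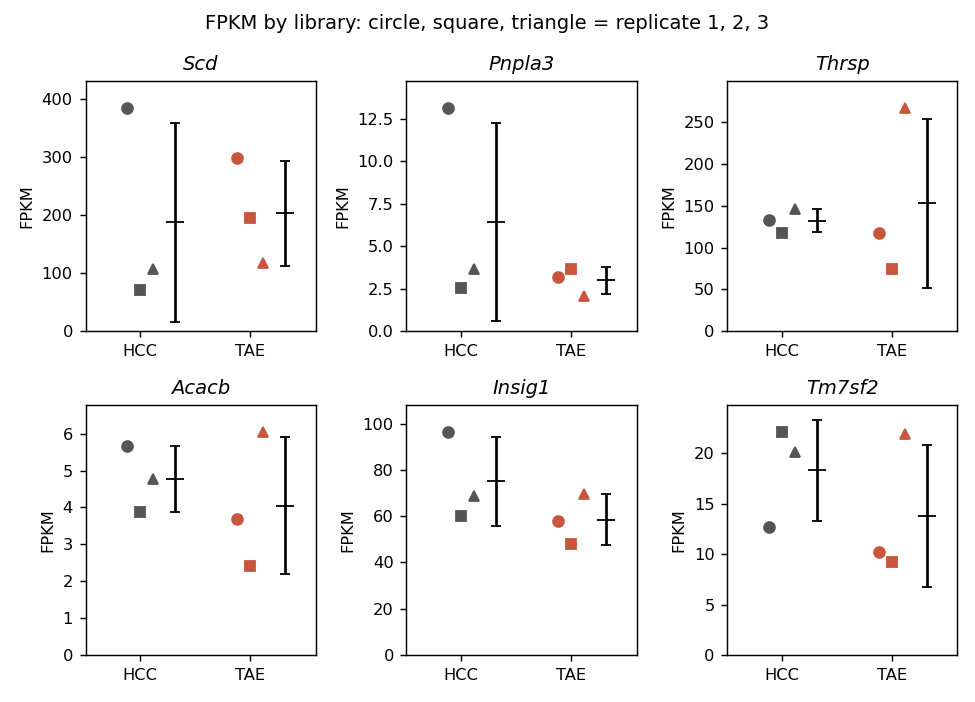
FPKM (y axis, from 0) in each library for 6 members with wide spread within a group, symbols and bars as labelled, mean ± SD (n = 3). HCC replicate 1 (circle) is high for Scd (385) and Pnpla3 (13.1), and TAE replicate 3 (triangle) for Thrsp (267).

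Elovl5, which lengthens polyunsaturated chains between the steps of Fads2 and Fads1, stood at 83.1, 93.2 and 81.9 FPKM in HCC and 74.6, 53.3 and 51.0 FPKM in TAE. The groups did not overlap (log2 change -0.58 ± 0.17, edgeR adjusted p = 0.107), and DESeq2 called it lower. In FPKM, Fads1, Fads2 and Elovl5 lay lower in every TAE library than in any HCC library, as did 5.57% of all tested genes. Scd, the desaturase of saturated chains, did not. That difference between genes was not tested. Srebf1 stood at 30.5, 25.8 and 26.8 FPKM in HCC and 25.4, 23.8 and 18.8 FPKM in TAE (log2 change -0.35 ± 0.13, edgeR adjusted p = 0.165), again with a narrow gap between the groups, and its row overlaps Rai1 on the other strand. Among members, the rows of Idi1 and Tm7sf2 overlap those of Wdr37 and Vps51, and reads of overlapping exons could be shared between rows, for Idi1 and Srebf1 if strand was not used.

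The TAE libraries split the members by replicate, as the heat map of all members shows. TAE replicates 1 and 2 lay below all HCC libraries while replicate 3 did not for 7 members under both scalings, namely Fdft1, Tm7sf2, Hsd17b7, Ebp, Insig1, Acacb and Thrsp, and for 4.92% of all tested genes. The mean log2 level over the 16 hepatocyte markers was -0.80, -1.44 and 0.41 in TAE replicates 1, 2 and 3 relative to HCC. Single markers departed from this mean. Ttr and Tat lay below HCC in all 3 TAE libraries, at -0.26 and -0.61 in replicate 3, and Arg1 stood at 0.23, -0.22 and 1.43. TAE replicates 1 and 3 lay below all HCC libraries while replicate 2 did not for Mvd, Srebf2 and Acly, 3 of 34 members, under both scalings. This share was below the 12.5% of all tested genes, so the pattern was not particular to the members. The cell cycle markers stood at -0.35, -0.05 and -1.32 in the 3 TAE libraries. Fads1 was low in all of them, at -0.86, -0.93 and -0.69, as was Dhcr7, at -1.07, -1.23 and -0.52, and Fads2, at -0.61, -1.38 and -0.81. By branch, the mean log2 level of the sterol members was -0.64, -0.59 and -0.19 in TAE replicates 1, 2 and 3, and that of the fatty acid members was -0.32, -0.58 and -0.30. The part of hepatocyte and cell cycle content in each member's level was not tested.

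**Figure D4:**
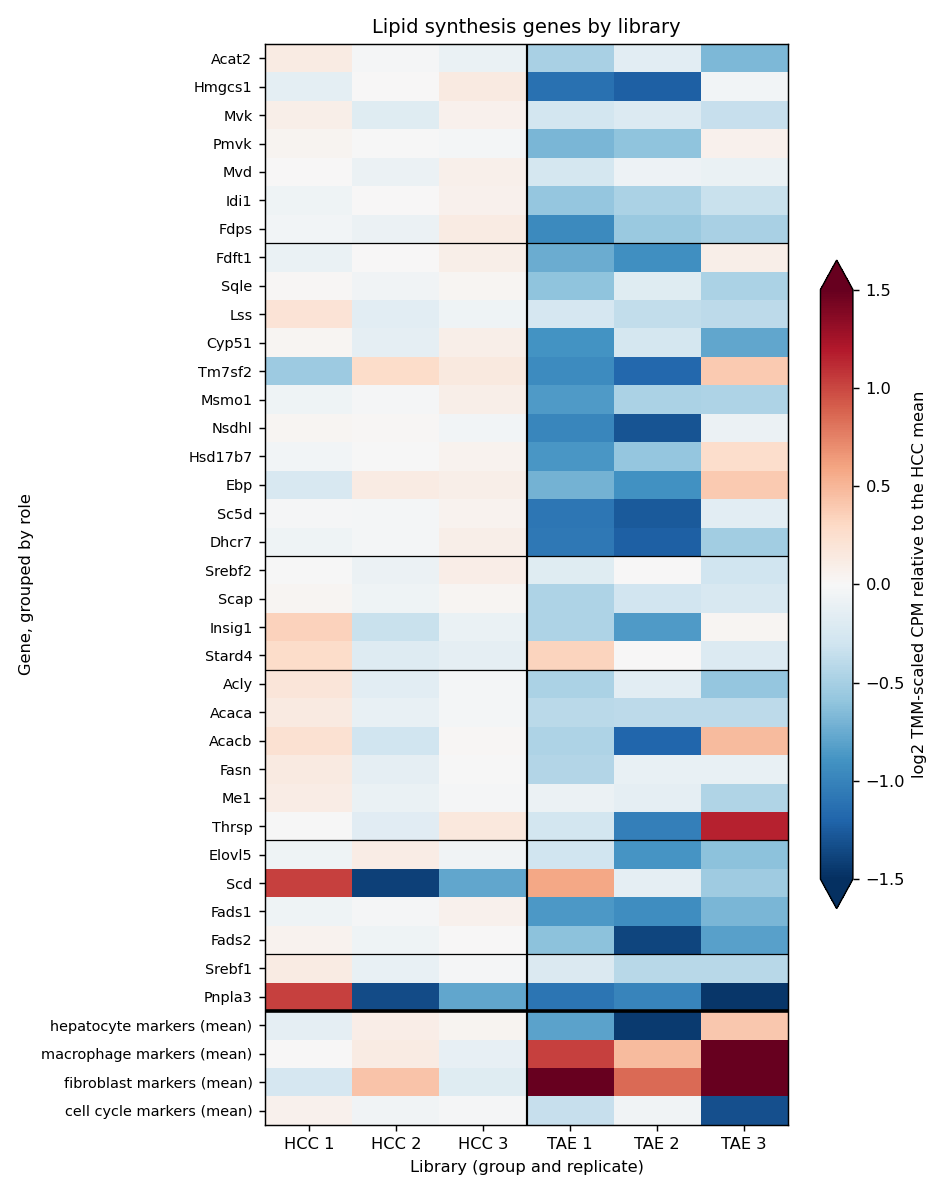
Level of each tested member in each library (columns, 3 HCC and 3 TAE), as log2 TMM-scaled CPM relative to the HCC mean (colour), with the mean of 4 marker lists under the thick line. Blue fills all 3 TAE columns for Fads1 and Dhcr7, while Fdft1 and Ebp are blue in TAE replicates 1 and 2 and pale or red in replicate 3.

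**Figure D5:**
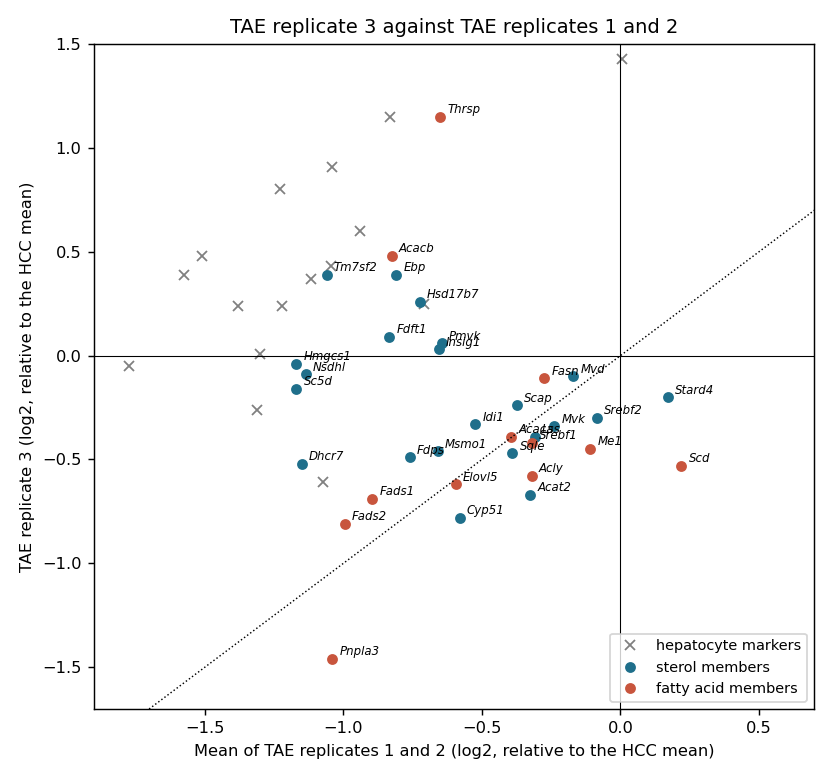
Log2 level relative to the HCC mean in TAE replicate 3 (y axis) against the mean of TAE replicates 1 and 2 (x axis) for each tested member and for the hepatocyte markers (crosses), with the line of equal values dotted. Fads1 and Fads2 lie near the line, and Tm7sf2 and Ebp lie above it beside the crosses.

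Of 27 other sterol genes tested, Insig2 fell, Mylip rose and 25 did not pass in edgeR, beside 0.310% of all genes called lower and 2.70% higher. At an unadjusted p under 0.05, 5 were lower and 4 higher, where 6.82% and 15.9% of all genes were. DESeq2 called 3 lower (Insig2, Soat2 and Abcg8) and 3 higher (Mylip, Npc2 and Abcg1), where it called 1.99% of all genes lower and 10.2% higher. The median log2 change of the list was -0.19. Insig2, the second Insig gene, stood at 59.7, 77.5 and 68.4 FPKM in HCC and 40.3, 28.6 and 33.4 FPKM in TAE. All TAE libraries were under the HCC libraries, with a log2 change of -1.05 ± 0.20 (edgeR adjusted p = 0.0442). Mylip, a ubiquitin ligase, stood at 4.47, 4.89 and 3.46 FPKM in HCC and 16.4, 9.24 and 16.4 FPKM in TAE (log2 change 1.69 ± 0.31, edgeR adjusted p = 0.0429). Both calls were lost without TAE replicate 1 or any 1 HCC library (edgeR adjusted p = 0.142 to 0.223).

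The exporters Abca1 and Abcg1, which macrophages also express, had log2 changes of 0.89 ± 0.35 and 1.13 ± 0.30 (edgeR adjusted p = 0.191 and 0.0853). The lysosomal sterol carrier Npc2 had 1.29 ± 0.26 (edgeR adjusted p = 0.0504). For Abca1 the groups overlapped, with TAE replicate 2 at 13.5 FPKM beside 11.1 to 14.9 FPKM in HCC. Abcg5 and Abcg8 of the same list went the other way, at no more than 1.81 FPKM in any library. Their log2 changes were -1.33 ± 0.57 and -2.44 ± 0.64 (edgeR adjusted p = 0.221 and 0.0867). Of 10 macrophage markers edgeR called 6 higher, where it called 2.70% of all genes higher, while Marco, Clec4f and Cd163 had log2 changes of -0.05, -0.38 and -0.10. The part of macrophage content in the levels of Abca1, Abcg1 and Npc2 was not tested. Soat2, the cholesterol esterifying enzyme of hepatocytes, stood at 12.5 ± 1.96 FPKM in HCC and 5.73 ± 2.22 FPKM in TAE (log2 change -1.13, edgeR adjusted p = 0.120).

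Of 25 other fatty acid and glyceride genes tested, 0 passed in edgeR in either direction, 4 were lower and 2 higher at an unadjusted p under 0.05, and DESeq2 called 4 lower and 1 higher. Over all genes the shares were 6.82% lower and 15.9% higher unadjusted, and 1.99% lower and 10.2% higher in DESeq2. Slc25a1, the citrate carrier that feeds Acly, stood at 53.1, 51.7 and 57.3 FPKM in HCC and 34.2, 41.9 and 38.2 FPKM in TAE, without overlap (log2 change -0.55 ± 0.14, edgeR adjusted p = 0.0758). Elovl2, the elongase for very long polyunsaturated chains, had 4.49 ± 0.427 FPKM in HCC and 2.63 ± 0.443 FPKM in TAE (log2 change -0.80 ± 0.24, edgeR adjusted p = 0.117). Fabp1, the fatty acid carrier of hepatocytes, stood at 1509.97, 2284 and 1862 FPKM in HCC and 689.7, 438 and 977 FPKM in TAE (log2 change -1.43 ± 0.37, edgeR adjusted p = 0.0832). On the other side of 0 was Plin2, a coat protein of lipid droplets, with 119.8 ± 14.6 FPKM in HCC and 203 ± 57.1 FPKM in TAE (SD, n = 3; log2 change 0.75 ± 0.29, edgeR adjusted p = 0.184). Every TAE library of it lay above every HCC library. Of the adipocyte markers Lep was listed at 0 in every library and Plin1 and Adipoq at no more than 0.38 FPKM, while Fabp4, which macrophages express as well, stood at 13.9 to 17.8 FPKM in HCC and 33.6 to 118 FPKM in TAE.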

How the data were processed

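Poly(A) RNA of rat liver was sequenced paired-end from strand-specific (dUTP) libraries, per the labels' protocols, in 3 HCC and 3 TAE libraries. The authors deposited 1 table with a whole-number count per gene and library and FPKM beside it. The submitters' processing notes name mRatBN7.2, and for the aligner, the counter and the use of strand the sources used here give nothing. The build of the table's coordinates was not settled, so they are printed as deposited. The deposited FPKM equalled count over exonic size and library total within 0.006 for 100.0% of values.

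Counts were scaled by TMM, filtered with filterByExpr (14499 of 32623 genes) and tested with edgeR 4.0.16 quasi-likelihood fits in R 4.3.3, HCC against TAE with no covariate, with Benjamini-Hochberg adjustment over all genes and a threshold of 0.05. The fit was tested on simulated data. Alternatives were median-of-ratios scaling, library totals, no filter, DESeq2 1.42.0, limma 3.58.1 on log2(FPKM + 1) and log2(FPKM + 0.1) for genes with a mean FPKM of at least 0.5, a replicate block, and leaving out each library. Levels by library are log2 TMM-scaled CPM minus the HCC mean. Motifs were searched in the 250 bases before RefSeq starts (GRCr8), matched by symbol, 1 start per gene.

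The members and lists were chosen with earlier results of these data known. Values in every library are given for members that passed, members whose groups did not overlap and the most abundant member of each role group, and others were added after their values were seen. For some other members means are given. Some genes of the wider pathway lists are counted but not reported here by name.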

Additional observations from a re-analysis of the deposited data

How the results depend on the processing

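Against 1 member called lower and 0 higher, DESeq2 called 9 lower, library totals, no filter on low counts and limma with either pseudocount called 3 each (Fads1, Fads2 and Dhcr7), and median-of-ratios scaling called 1. Leaving out 1 library gave 0 to 13. No member was called higher under any of these. Over all genes the lower and higher calls were 45 and 392 in edgeR, 288 and 1475 in DESeq2, 75 and 961 with library totals, 69 and 760 without the filter, 61 and 648 or 69 and 632 in limma, and, with a library left out, 0 to 1410 and 0 to 2159. Leaving out a library also leaves fewer residual degrees of freedom. With a library left out, the median log2 change ranged from -0.33 to -0.62 over the sterol members (-0.62 without TAE replicate 3) and from -0.23 to -0.45 over the fatty acid members (-0.23 without HCC replicate 1). Of 442 log2 changes of single members under an alternative, 8 had the other sign, in 4 members. With a library left out, the log2 change ranged from -0.33 to 1.10 for Scd, -0.58 to 0.61 for Thrsp, -0.76 to 0.08 for Acacb and -0.09 to 0.22 for Stard4. The causes were not tested. With 3 libraries a group and a biological coefficient of variation of 0.24, small changes cannot be resolved.

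With the replicate number as a block, 0 members and 0 genes were called in edgeR, and Thrsp had a log2 change of -0.05. The labels do not say that a shared number marks a shared animal or day, so the numbers were not taken to pair the samples. Same-numbered libraries correlated at 0.10, -0.209 and 0.0335 in their deviations from the group means. Libraries of unlike number correlated at -0.19 to 0.16, and with so few libraries these values cannot settle pairing.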
